A study of Rattus norvegicus with 30 samples.

Results

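Transcripts of the cytosolic ribosomal protein genes were followed in rat hippocampus after kainate, which activates a class of glutamate receptors and is used to induce seizures. A probe set, a group of array probes for one transcript, was taken as a member when the platform annotation gave it a single gene symbol of the Rpl or Rps series or Rpsa, Rplp0, Rplp1 or Rplp2. Kinases named Rps6k were left out. This selected 63 of 8740 probe sets that are not array controls, and they stand for 43 of 4736 genes named by a single symbol. A further 40 probe sets name several genes, at least 1 of them a ribosomal protein gene, and were not used. For each gene the probe set with the highest mean log2 signal over all 30 arrays was taken. Of the 43 genes 42 lay above the filter on low signal and were tested, 29 with an Rpl symbol (60S subunit) and 13 with an Rps symbol (40S subunit). The remaining member, Rps2-ps1, is annotated as a pseudogene and lay below the filter. Rps4x-ps9, counted among the 13 tested with an Rps symbol, is also annotated as a pseudogene.

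The arrays form 10 groups of 3: rats given kainate or phosphate-buffered saline (PBS), killed 1, 6, 24, 72 or 240 h later. All groups are total RNA from hippocampus, a tissue that mixes neurons, glia and vessel cells. Strain, age, sex, kainate dose and route are not in the labels, nor is it said whether each array is a different rat. The p-values therefore cover the spread among arrays, which may be technical. Neuron markers were present as the tissue label says (17 of 18 on the array were tested, among them Snap25, Thy1 and Nrgn). The exception was Slc17a7, which was at the floor, a signal below which values have no order, on all 30 arrays.

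Ribosomal proteins assemble with ribosomal RNA into the small 40S and large 60S subunits, which join on a messenger RNA to translate it. Their genes are expressed in every cell type and usually at a high level, and each subunit needs its proteins in fixed proportion. Their transcripts are known for a run of pyrimidines at the 5′ end, the terminal oligopyrimidine tract, through which mTOR signalling controls their translation. Mammalian genomes hold many processed copies of these genes, so a probe set may also take signal from a copy, and values of single genes carry that uncertainty.

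At 24 h after kainate 11 of the 42 tested ribosomal protein genes were higher than in PBS rats and 1 was lower. Among all 6303 tested probe sets 5.03% were higher and 6.3% lower. The rises lay between 1.37-fold for Rpsa and 1.90-fold for Rpl18, and the gene that fell was Rpl3l. The median log2 change was 0.26 over the members and −0.047 over all tested probe sets, and 34 of 42 members had a change above 0, against 45.9% of all. Tests were made with limma, a linear model with moderated variances, with Benjamini-Hochberg adjustment over all tested probe sets and a threshold of 0.05. Scaling the arrays to a common median left the members' count at 11 higher and 1 lower, but moved all calls from 317 higher of 714 to 374 higher of 647.

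The members are brightly expressed, 35 of 42 with a mean log2 signal of 8 or more, so they were also set beside other bright probe sets. Of 933 other tested probe sets at or above the lower quartile of the members' mean log2 level (8.65), 7.93% were higher and 13.3% lower at 24 h. Their median log2 change was −0.03. Probe sets that name several genes were not taken out of the 933, so these may include some ribosomal protein probe sets. Over the 3 kainate arrays against the 3 PBS arrays, 17 of 42 members were higher without overlap of the groups and 1 lower, against 12.5% and 15.6% of all tested probe sets.

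**Figure D1:**
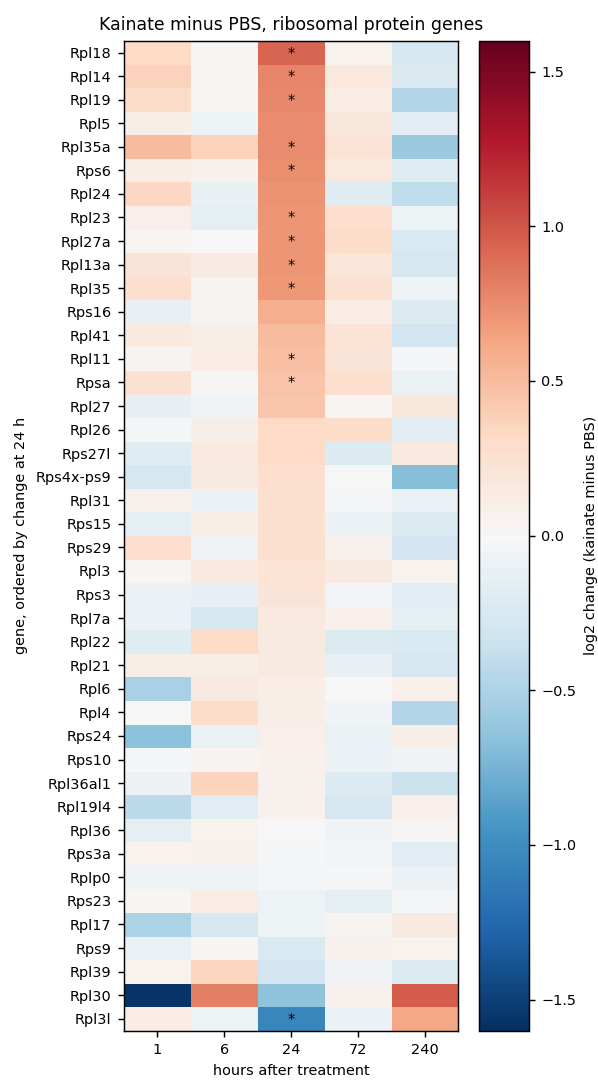
Log2 change (kainate minus PBS, colour) of the 42 tested ribosomal protein genes, in rows ordered by their change at 24 h, at 1, 6, 24, 72 and 240 h in columns, from 3 arrays per group; a star marks an adjusted p under 0.05. All 12 stars lie in the 24 h column, 11 on rises and 1 on the fall of Rpl3l.

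Of the 60S subunit, 9 of 29 genes rose. Rpl18 had the largest rise. Its signal was 428, 498 and 571 on the PBS arrays of 24 h and 834, 981 and 1025 on the kainate arrays, so that the groups were far apart (fold 1.90, log2 change 0.93 ± 0.15 SE, adjusted p = 0.000157). Rpl14 read 248, 248 and 274 after PBS and 383, 464 and 479 after kainate (fold 1.72, log2 change 0.78 ± 0.14 SE, adjusted p = 0.000532). Its 3 kainate arrays also lay above every PBS array of the other times, as they did in each gene that rose. Rpl27a, a protein of the core of the large subunit, read 1884, 2361 and 2405 and 3350.1, 3492 and 3944 (fold 1.63, log2 change 0.70 ± 0.13 SE, adjusted p = 0.000833).

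Several of the rising 60S genes encode proteins at known sites. Rpl35, at the exit of the peptide tunnel, read 979, 1074 and 1370.5 after PBS and 1665, 1854 and 1997 after kainate (fold 1.62, log2 change 0.70 ± 0.13 SE, adjusted p = 0.000974). Rpl23, which faces the small subunit, read 1809, 1869.7 and 2029 and 2799.6, 3249 and 3317 (fold 1.64, log2 change 0.71 ± 0.15 SE, adjusted p = 0.00314). Rpl19, which takes part in a bridge between the subunits, read 1316, 1318 and 1715 and 2184, 2504 and 2700.0 (fold 1.71, log2 change 0.77 ± 0.21 SE, adjusted p = 0.0161). In each of these genes the lowest kainate array lay above the highest PBS array. Rpl19 did not pass without kainate replicate 3, PBS replicate 2 or PBS replicate 3 of 24 h, with a highest adjusted p of 0.08.

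Rpl13a, which is also known as a regulator of translation in inflammation, read 898, 901 and 949 after PBS and 1359, 1486 and 1635 after kainate (fold 1.63, log2 change 0.70 ± 0.15 SE, adjusted p = 0.0021). Rpl35a, a gene mutated in Diamond-Blackfan anaemia, read 477, 491 and 620.0 and 796, 843 and 1048 (fold 1.69, log2 change 0.76 ± 0.22 SE, adjusted p = 0.0251). Rpl11, which together with Rpl5 binds the 5S ribosomal RNA and can block Mdm2, read 1457, 1547 and 1598 and 1809, 2203 and 2428 (fold 1.39, log2 change 0.48 ± 0.10 SE, adjusted p = 0.00248). The groups of all 3 genes were apart. Rpl35a did not pass without kainate replicate 3, PBS replicate 1 or PBS replicate 2 of 24 h (highest adjusted p = 0.134).

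Of the 40S subunit, 2 of 13 genes rose. Rps6, the ribosomal protein phosphorylated by the S6 kinases downstream of mTOR, read 1188, 1289.6 and 1379 on the PBS arrays and 2041, 2065 and 2333 on the kainate arrays (fold 1.67, log2 change 0.74 ± 0.13 SE, adjusted p = 0.000479). Rpsa, which also occurs as the precursor of a laminin receptor, read 974, 1048 and 1107 and 1362, 1454 and 1468 (fold 1.37, log2 change 0.45 ± 0.13 SE, adjusted p = 0.0222). Rpsa had the smallest rise of the 11, and it did not pass without kainate replicate 3, PBS replicate 1 or PBS replicate 3 of 24 h (highest adjusted p = 0.0904). The median log2 change at 24 h was 0.26 for the 29 genes of the large subunit and 0.26 for the 13 of the small one.

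**Figure D2:**
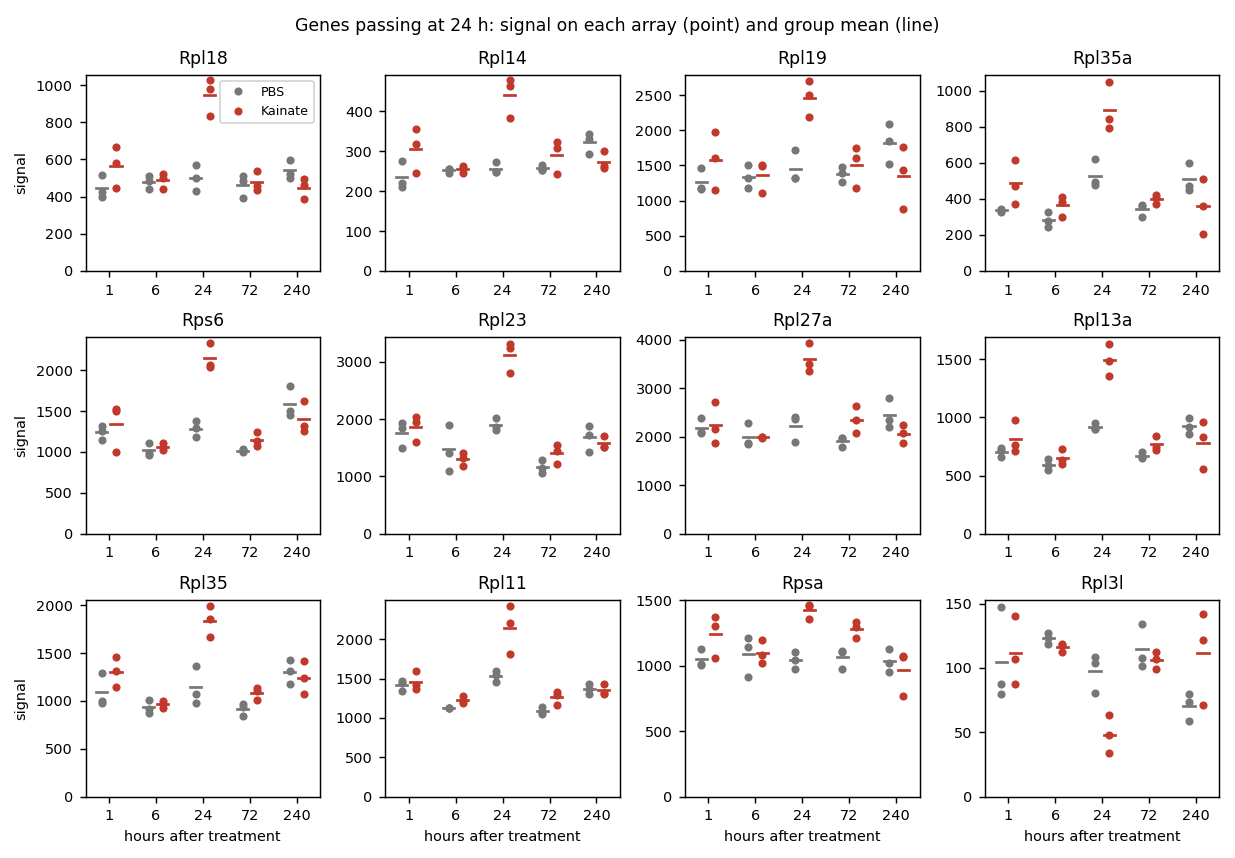
Signal (linear scale, from 0) of the 12 genes that passed at 24 h on each of the 30 arrays, by hours after treatment, PBS in grey and kainate in red; points are arrays and lines group means. The red points of 24 h lie above all grey points in the 11 genes that rose, and below the grey points of 24 h in Rpl3l.

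The 11 rising genes were compared, as a description, with the PBS arrays of all times. In each of the 11 genes the 3 kainate arrays of 24 h lay above all 15 PBS arrays. The genes were picked by these same kainate arrays, so this outcome is partly built in and is no further support. The share among all tested probe sets is not given. The PBS mean of 24 h was not the lowest of the 5 PBS means in any of them, and it was the highest in Rpl11, Rpl23 and Rpl35a. The PBS groups of 6 and 72 h had a lower mean than those of 1, 24 and 240 h in 39 of 42 members. A 24 h mean above the lowest is therefore partly built in, and the ranks do not check the 24 h controls. Rpl23, for instance, had PBS means between 1166 at 72 h and 1903 at 24 h, against 3122 ± 281 (SD, n = 3) after kainate at 24 h.

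The fall of Rpl3l differed from these rises. Rpl3l is the paralog of Rpl3 that is known from heart and skeletal muscle, and its signal was low, 80.2, 104 and 109 on PBS arrays and 33.8, 47.8 and 63.1 on kainate arrays of 24 h (log2 change −1.05 ± 0.25 SE, adjusted p = 0.00786). A dimmer probe set of the same gene had a log2 change of 0.31 (adjusted p = 0.731) at a mean log2 signal of 4.66. Its direction is not settled, and the fall rests on 1 probe set. Rpl3l also did not pass with the arrays of 24 h alone, with those of 1, 24 and 240 h alone, or with the mean of its probe sets. Rpl3 itself, a protein close to the peptidyl transferase centre, read 1992, 2126 and 2258 and 2224, 2509.5 and 2711 (log2 change 0.22 ± 0.13 SE, adjusted p = 0.271), and its groups overlap.

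The other 30 tested members did not pass at 24 h, and their changes ran from −0.64 to 0.76. Some had changes as large as those that passed. Rpl24, another bridge protein between subunits, had a log2 change of 0.71 (adjusted p = 0.0646), and Rps16, whose tail reaches the tRNA in the P site, one of 0.58 (adjusted p = 0.064). Rpl5, the partner of Rpl11, had 0.76 (adjusted p = 0.15) at a low signal of 24.1, 25.2 and 44.8 on PBS and 39.5, 56.6 and 58.8 on kainate arrays. Rpl30 had −0.64 with the largest standard error of any member (0.79) and Rpl39, in the peptide tunnel, −0.31 (adjusted p = 0.509).

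Other members at high signal had changes near 0. Rplp0, the base of the stalk that binds elongation factors, read 2939, 3066 and 3151 after PBS and 2690.1, 3084 and 3237 after kainate (log2 change −0.027 ± 0.13 SE, adjusted p = 0.925). Rps3a read 1466, 1498 and 1608 and 1220.2, 1521 and 1812 (log2 change −0.024 ± 0.12 SE, adjusted p = 0.934), and Rps23, a protein of the decoding centre, 1835, 1864 and 1898 and 1434, 1807 and 2142 (log2 change −0.076 ± 0.13 SE, adjusted p = 0.764). In these 3 genes the kainate arrays lay on both sides of the PBS arrays. Whether their changes differ from those of the rising genes was not tested, and a p above the threshold does not show that these genes were unaffected.

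Sequences around the transcription start of members are shown to set the genes that rose beside members with changes near 0 and the fall of Rpl3l. Start sites were available for 36 of the 43 members in RefSeq (build GRCr8), and each window holds 40 bases, 20 on either side of the annotated start, with the longest run of pyrimidines (C or T) in capitals. The first 6 genes rose in every fit tried, Rpl36, Rps3a and Rplp0 had the changes at 24 h nearest to 0 among members with a window, and the last is Rpl3l.
Rpl18 (chr1:105325250-105325289, plus strand): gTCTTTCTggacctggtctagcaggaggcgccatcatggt
Rps6 (chr5:106420521-106420560, minus strand): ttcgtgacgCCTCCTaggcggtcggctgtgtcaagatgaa
Rpl14 (chr8:129163600-129163639, plus strand): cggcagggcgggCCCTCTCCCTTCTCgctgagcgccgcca
Rpl27a (chr1:172974553-172974592, plus strand): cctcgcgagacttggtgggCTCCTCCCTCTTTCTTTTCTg
Rpl35 (chr3:43165902-43165941, minus strand): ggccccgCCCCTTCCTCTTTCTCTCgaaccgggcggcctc
Rpl23 (chr10:83272165-83272204, minus strand): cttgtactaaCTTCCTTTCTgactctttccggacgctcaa
Rpl36 (chr9:1533760-1533799, plus strand): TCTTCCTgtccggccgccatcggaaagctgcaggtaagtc
Rps3a (chr2:173827023-173827062, minus strand): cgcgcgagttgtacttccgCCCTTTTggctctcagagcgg
Rplp0 (chr12:46718371-46718410, minus strand): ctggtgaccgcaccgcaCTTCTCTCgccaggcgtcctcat
Rpl3l (chr10:14258426-14258465, plus strand): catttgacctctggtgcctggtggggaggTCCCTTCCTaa

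A run of at least 8 pyrimidines on the transcript strand lay in this window in 24 of 36 members (66.7%) and in 15.5% of 33469 promoters. The longest run had a median of 10.5 bases in members and 5 in all. The share was 8 of 11 among the genes that rose and 16 of 25 among the other members, so the run is found on both sides. Rps6 and Rpl18, which rose, have longest runs of 6 and 7, and Rplp0, which did not pass, has one of 8. Annotated starts can differ from the start used in the hippocampus, which moves the window.

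Over the 300 bases from 250 before to 50 after the start, on both strands, the letters CTTTCC were present in 18 of 36 members and 26.4% of all promoters of that length. The letters CCGGAA, the core bound by ETS factors, were present in 13 of 36 members (36.1%) and in 5004 of the 33469 promoters. They were found in 7 of the 11 genes that rose and 6 of the 25 others. The letters AAGATGG, the core bound by YY1, were present in 8 of 36 members and 7.01% of all, 2 of the 11 and 6 of the 25. The letters TATAAA were present in 4 of 36 members and 14.2% of all. CTTTCC can lie inside a pyrimidine run and can share bases with the reverse of CCGGAA. The motifs were chosen after the values were seen and the counts carry no test.

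Genes with more than 1 tested probe set allow a further reading on the same arrays, which is not an independent one. There were 16 such genes. Both probe sets rose at 24 h for Rps6, Rpl23, Rpl35, Rpsa and Rpl11. In each of these genes the 2 probe sets are named for the same source sequence, so likeness between them is partly built in. For Rps6 the dimmer probe set changed by 0.91 on the log2 scale and the brighter by 0.74. For Rpl13a, whose 2 probe sets are named for different source sequences, 1 rose and the other had a change of 0.12 (adjusted p = 0.729 with limma). Rpl24 and Rps15, which did not pass by the probe set that stands for them, each had 1 other probe set that rose, with log2 changes of 0.66 and 0.69. The 2 probe sets of Rpl24 are also named for the same source sequence. For Rps15 the one that rose was the dimmest. A brighter one, named for the same source sequence, changed by 0.14 (adjusted p = 0.746 with limma). In 14 of the 16 genes every tested probe set had a change above 0, and the exceptions were Rpl21 and Rpl3l.

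**Figure D3:**
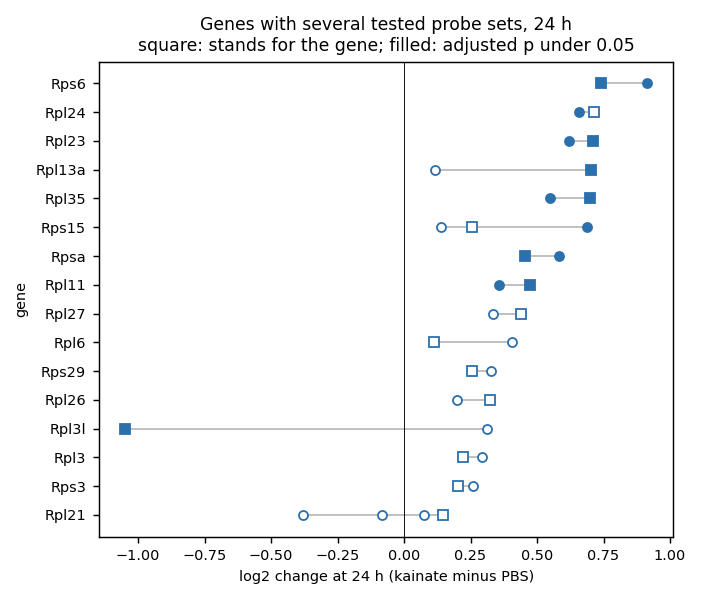
Log2 change at 24 h (kainate minus PBS) of each tested probe set, for the 16 members with more than 1; a square stands for the gene, filled symbols have an adjusted p under 0.05 and grey lines join probe sets of a gene. Probe sets of Rps6, Rpl23, Rpl35, Rpsa and Rpl11 are all filled and above 0, and those of Rpl3l lie on both sides of 0.

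At the other times no member passed with limma. At 1 h it was 0 of 42, with 6 at an unadjusted p under 0.05, where 1.09% of all tested probe sets passed (0.904% higher, 0.19% lower) and 9.68% had an unadjusted p under 0.05. The median log2 change of members was 0.027 against −0.038 for all tested probe sets, with 22 members above 0 against 44.7% of all. Without overlap of the groups 2 members were higher and 5 lower, against 4.73% and 5.55% of all. The largest positive values were those of Rpl35a (0.51), Rpl14 (0.37) and Rpl24 (0.33), with adjusted p between 0.311 and 0.719. The largest negative ones were those of Rpl30 (−1.56), Rps24 (−0.65) and Rpl6 (−0.51), with adjusted p between 0.113 and 0.538. Rps24 read 219, 251 and 281 after PBS and 145, 153 and 179 after kainate, without overlap. Rpl35a read 329, 335 and 344 and 374, 473 and 614, also without overlap.

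At 6 h 0 of 42 members passed, and 0 had an unadjusted p under 0.05, against 3.93% (3.24% higher, 0.698% lower) and 14.7% of all tested probe sets. Without overlap 4 were higher and 2 lower, against 9.65% and 18% of all. The median was 0.047 against −0.11, and 29 members had a change above 0 against 37% of all. The extremes were Rpl30 (0.80), Rpl35a (0.36) and Rpl36al1 (0.36) on the positive side and Rpl7a (−0.28), Rpl17 (−0.27) and Rpl19l4 (−0.17) on the negative side. Of the genes that rose at 24 h, Rpl27a read 1846, 1880.4 and 2282 after PBS and 1984, 1995 and 2002 after kainate at 6 h, and the kainate arrays lay within the range of the PBS arrays.

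At 72 h again 0 of 42 passed, with 3 at an unadjusted p under 0.05, and 0.0476% of all tested probe sets passed (6.33% unadjusted). The median was 0.037 against −0.036. Rpl26 (0.30), Rpl27a (0.29) and Rpsa (0.27) had the largest positive values, and Rpl19l4 (−0.27), Rpl22 (−0.22) and Rps27l (−0.22), a paralog of Rps27 known as a p53 target, the largest negative ones. Rpsa read 974, 1108 and 1112 after PBS and 1216, 1299 and 1335 after kainate, without overlap (adjusted p = 0.776). Of the members, 7 were higher and 2 lower without overlap, against 10.1% and 12% of all tested probe sets, and 23 had a change above 0 against 44.8%.

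At 240 h 0 of 42 passed, with 6 at an unadjusted p under 0.05, and 0.0476% of all tested probe sets passed (12.2% unadjusted). The median was −0.17 against 0.027, and 11 of 42 members had a change above 0 against 53.3% of all. The median was −0.077 without kainate replicate 1 and −0.11 without PBS replicate 1. Kainate replicate 1 had a median log2 signal of 9.74 over the members, against 10.04 and 10.05 on the other kainate arrays. Without overlap 0 were higher and 5 lower, against 9.58% and 4.89% of all. The largest negative values belonged to Rps4x-ps9, annotated as a pseudogene of Rps4x (−0.69, adjusted p = 0.113), Rpl35a (−0.59) and Rpl19 (−0.47). Rpl35a read 448, 474 and 602 after PBS and 204, 363 and 509 after kainate, with 1 kainate array within the PBS range and the lowest value on kainate replicate 1. The largest positive values were those of Rpl30 (0.96), Rpl3l (0.61) and Rpl27 (0.18), with adjusted p between 0.338 and 0.679. Rpl18, the largest rise of 24 h, read 499, 524 and 598 and 389.5, 459.7 and 492 at 240 h, lower without overlap (log2 change −0.28, adjusted p = 0.481).

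**Figure D4:**
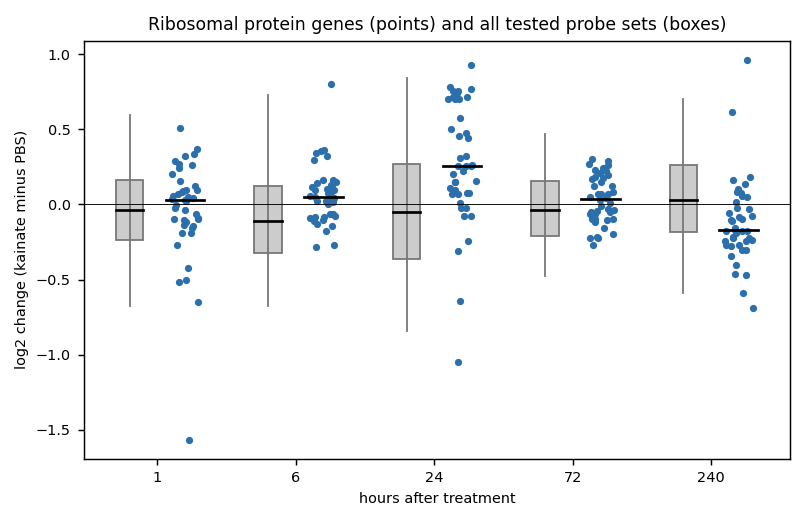
Log2 change (kainate minus PBS) at each time; points are the 42 tested ribosomal protein genes and a black line is their median, boxes hold the 25th to 75th percentile of all 6303 tested probe sets with their median, and whiskers reach the 5th and 95th. The member median is 0.26 at 24 h and −0.17 at 240 h (−0.077 without kainate replicate 1), and within 0.05 of 0 at the other times.

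Whether the kainate effect of a gene depended on time was tested with an F test over the 5 times. It passed for 7 of 42 members, against 6.62% of all tested probe sets: Rpl18, Rpl27a, Rpl14, Rps6, Rpl3l, Rpl13a and Rpl35a, with adjusted p from 0.00414 to 0.0416. The count was 3 without kainate replicate 3 or PBS replicate 2 of 24 h, 4 without kainate replicate 1 or PBS replicate 1 of 240 h, and 11 without kainate replicate 3 of 240 h. For Rpl18 the log2 changes were 0.32, 0.026, 0.93, 0.051 and −0.28 from 1 to 240 h. For Rps6 they were 0.089, 0.066, 0.74, 0.17 and −0.19. The mean effect over the 5 times passed for 3 of 42 members, Rpl35 (0.23), Rpl14 (0.22) and Rpl11 (0.17), against 4.41% of all. At an unadjusted p under 0.05 it was 11, against 19.9% of all. The passing count was 1 without kainate replicate 1 of 1 h, 2 of 6 h or 3 of 72 h, or without PBS replicate 3 of 24 h, 2 of 72 h or 2 of 240 h. It was 5 without kainate replicate 1 or 2 of 240 h, 6 without kainate replicate 3 of 1 h, and 5 when arrays were scaled to a common median.

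The members also differed among the PBS controls. An F test over the 5 PBS groups passed for 21 of 42 members, against 16.9% of all tested probe sets. After the values were seen, the PBS groups of 6 and 72 h were set against those of 1, 24 and 240 h, a division that no label names. The mean of the PBS groups of 1, 24 and 240 h was above that of 6 and 72 h in 39 of 42 members, with a median log2 difference of 0.34 against −0.087 over all. These values carry no test. Rps15, near the decoding site of the small subunit, had PBS means of 1396, 1649 and 1248 at 1, 24 and 240 h, and 996 and 939.8 at 6 and 72 h.

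Within the PBS groups of 1, 24 and 240 h 5 members differed (5.57% of all tested probe sets), and between 6 and 72 h 0 did (0.127% of all). On the 9 PBS arrays of 1, 24 and 240 h the median log2 signal of all tested probe sets was 6.53 to 6.65, and on the 6 of 6 and 72 h it was 6.67 to 6.75, without overlap. The log2 ratio of the 3 prime to the 5 prime probe set, a sign of RNA quality, had overlapping ranges on these PBS arrays. The ranges were 0.33 to 0.78 and 0.25 to 0.59 for beta-actin, and −0.36 to 0.11 and −0.15 to 0.021 for Gapdh. For hexokinase they were 1.01 to 2.29 and 0.44 to 1.26. The means at 1, 24 and 240 h were higher for all 3: beta-actin 0.62 against 0.45, Gapdh −0.017 against −0.059, hexokinase 1.38 against 0.92. Their part in the difference of the members was not tested. The comparisons of kainate with PBS are made within a time. On the kainate arrays the median over all tested probe sets was 6.45 to 6.67 at 1, 24 and 240 h. At 6 and 72 h it was 6.61 to 6.68, with overlap. Whether kainate arrays share the division seen in the PBS arrays was not tested. Fitted with the 9 PBS and 9 kainate arrays of 1, 24 and 240 h alone, 9 members rose at 24 h and 0 fell, and Rpl35a, Rpsa and Rpl3l no longer passed.

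The members' summed signal, as a share of the summed signal of all tested probe sets on an array, was read as a further description. On the PBS arrays it was 2.22 to 2.38% at 6 and 72 h and 2.49 to 2.94% at 1, 24 and 240 h. At 24 h it was 2.86 to 2.94% after PBS and 3.42 to 3.77% after kainate, without overlap. At 240 h the shares were 2.50 to 2.70% and 2.16 to 2.62%, with overlap. The sum is led by the brightest probe sets and carries no test.

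**Figure D5:**
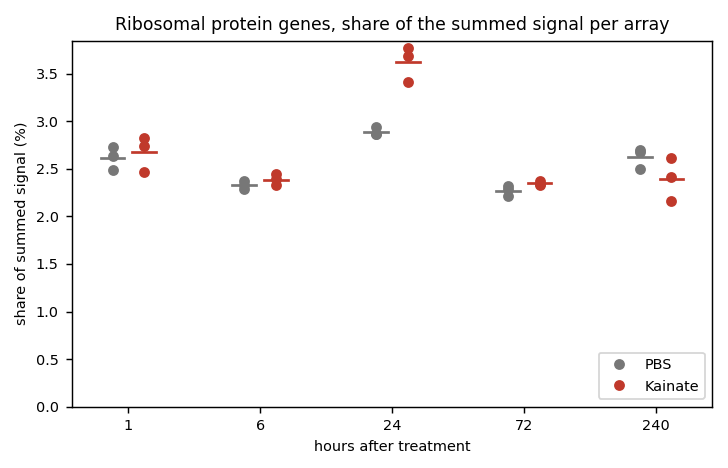
Summed signal of the 42 tested ribosomal protein genes as a percentage of the summed signal of all 6303 tested probe sets on each array, by hours after treatment, PBS in grey and kainate in red; points are arrays and lines group means. The kainate arrays of 24 h lie at 3.42 to 3.77%, above all other arrays, and the arrays of 6 and 72 h lie lowest among the PBS arrays.

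Signs of RNA quality overlapped between the groups of 24 h. The beta-actin log2 ratio was 0.645 to 0.780 after PBS and 0.660 to 0.947 after kainate, and that of hexokinase 1.04 to 2.29 and 1.07 to 1.43. For Gapdh it was −0.36 to 0.062 and 0.016 to 0.067. PBS replicate 1 had the lowest Gapdh and the highest hexokinase ratio of these arrays. Markers of cell types moved at the same time, when 5.03% of all tested probe sets were higher and 6.3% lower. Of the microglia and macrophage markers 4 of 10 tested rose. The summed signal of all 12 on the array was 1184 to 1402 after PBS and 2223 to 2578 after kainate. C1qb rose by 1.75 on the log2 scale (adjusted p = 2.37e-05). Lgals3 was at the floor on 2 of 3 PBS arrays and read 262 ± 13.6 (SD, n = 3) after kainate, so the size of its rise depends on the floor and is not given. Of these markers Cd74 and Csf1r were at the floor on all 3 PBS arrays. Neuron markers fell in 6 of 17 tested cases, led by Camk2a (−1.89, adjusted p = 0.000239) and Gria1 (−0.95, adjusted p = 0.00313). The sums over all 18 on the array were 16936 to 17767 after PBS and 14090.2 to 15288 after kainate. In whole tissue, fewer cells of a type and less RNA per cell cannot be told apart.

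Astrocyte markers had 1 of 8 higher and 2 lower, with sums of 7906 to 8251 and 7218 to 8238, led by Vim (2.55, adjusted p = 1.65e-09) and Aldoc (−0.83, adjusted p = 8.8e-05). Oligodendrocyte markers had 0 of 5 passing with limma and 2 at an unadjusted p under 0.05, against 26.4% of all tested probe sets, with sums of 7414 to 7588 and 5998 to 6522. Blood and endothelial markers had 2 of 7 lower, with overlapping sums of 3254 to 4108 and 2736 to 3815. The 2 were Slco1a4 (−1.03, adjusted p = 0.0151) and Slc4a1 (−0.81, adjusted p = 0.02). Choroid plexus markers had 1 of 5 higher, Igfbp2 (1.24, adjusted p = 0.00223), with sums of 1469 to 4024 and 3289 to 6387. The part of these cell types in the change of the ribosomal protein genes was not tested.

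Other genes of translation were read from lists. Of all tested probe sets 11.3% passed at 24 h, 5.03% higher and 6.3% lower, and counts in lists this short are to be read beside that share. At 24 h the mitochondrial ribosomal proteins, which serve the separate ribosome of that organelle, had 0 of 14 passing with limma, 4 at an unadjusted p under 0.05 (against 26.4% of all tested probe sets) and a median log2 change of 0.075. Of the translation initiation factors 1 of 19 passed, Eif2s3, a subunit of the factor that brings the initiator tRNA, which fell (−0.61), and the list's median was 0.22. Of 5 elongation and release factors Eef2, which moves the ribosome along the message, rose (0.39) and Eef2k, the kinase that inhibits it, fell (−0.97). Their adjusted p were 0.0355 and 0.00314.

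Of the ribosome biogenesis and nucleolar genes 1 of 10 passed at 24 h, Nolc1, a nucleolar phosphoprotein, which fell (−0.53). Of 9 genes of mTOR and S6 kinase signalling the kinase Akt1 fell (−0.42, adjusted p = 0.0477) and the phosphatase subunit Ppp2cb rose (0.41, adjusted p = 0.0493). At 6 h Rheb, the GTPase that activates mTOR, rose 1.94-fold (0.96, adjusted p = 6.2e-06), when no ribosomal protein gene passed. Rheb was not alone among the lists at 6 h: 2 of 10 tested microglia and macrophage markers were also higher, against 3.24% of all tested probe sets. Of 8 other genes with oligopyrimidine transcripts or ribosome-associated products, Eef2 and Vim rose at 24 h, and Rack1, a protein of the 40S subunit, had a log2 change of −0.10 (adjusted p = 0.711). Vim, an intermediate filament of reactive astrocytes, is on 2 lists and had a log2 change of 2.55.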

How the data were processed

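The 30 arrays are Affymetrix arrays of rat hippocampus RNA. As deposited, the values are linear intensities, 1 for each probe set of an array, and the software that made them is not stated in these sources. The authors' arrays already shared a level, since their means without the top and bottom 2% ranged from 150.1 to 150.2. Arrays were rescaled to the average of these means. Control probe sets aside, signals below the 20th percentile (10.95) were raised to it before log2 was taken, and testing required at least 3 arrays above the 40th percentile (signal 35.2). Fold changes are 2 to the power of the log2 difference of group means.

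Gene symbols came from the platform annotation, and sequences from RefSeq, build GRCr8. limma 3.58.1 in R 4.3.3 fitted a mean for each of 10 groups over 30 arrays (20 residual and 7.26 prior degrees of freedom) with variances moderated along the intensity, and p-values were adjusted by Benjamini-Hochberg over 6303 probe sets. The procedure was tested on simulated data with 200 changed probe sets. Tables and plots were made in Python 3.11.15 using matplotlib 3.10.9 and pandas 2.3.3. The members and lists were chosen with earlier results of these data known. Named are the members that passed, the 3 largest changes in each direction at each time, and Rpsa, Rplp0, Rps6 and Rpl3. Rplp1, Rplp2 and Rps27a had no probe set of a single symbol. Of each other list the rule names, at each time, the 2 largest changes that passed. The 2 microglia and macrophage markers that passed at 6 h are counted but not named. Genes named beyond the rule were chosen after their values were seen. Alternatives were quantile or median scaling, no floor, no filter, the replicate block, fewer arrays and other probe sets of a gene. The number of arrays limits the precision.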

Additional observations from a re-analysis of the deposited data

Results flagged for a closer look

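The kainate effect differed between times, by the limma F test over the 5 times, for 7 ribosomal protein genes. The adjusted p was 0.00414 for Rpl18, 0.0108 for Rpl27a and 0.011 for Rpl14. It was 0.0171 for Rps6, 0.0342 for Rpl3l, 0.0348 for Rpl13a and 0.0416 for Rpl35a. In 6 of these the effect at 24 h was the highest of the 5, and in Rpl3l it was the lowest.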

How the results depend on the processing

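At 24 h the count of passing members was 9 to 13 under 9 other settings and 9 to 15 without single arrays, and the member median 0.21 to 0.32 and 0.19 to 0.28. The count was 9 without kainate replicate 3 and also with the arrays of 1, 24 and 240 h alone. Rpl14, Rpl18, Rpl23, Rpl27a, Rpl35 and Rps6 passed in all fits. Rpl11 did not pass with the arrays of 24 h alone, nor did Rpsa. Rpl3l had a log2 change of 0.31 with its second probe set and did not pass. At 1 h the members' count was 0 to 1 without single arrays (51 to 96 of all tested probe sets), with 1 passing without kainate replicate 2. The members' count was 0 at 6, 72 and 240 h (163 to 279, 0 to 1 and 0 to 19 of all). At 72 h the median had a negative sign with quantile normalization (−0.0049). The medians without single arrays were −0.05 to 0.073 at 1 h, 0.031 to 0.083 at 6 h, −0.026 to 0.044 at 72 h and −0.19 to −0.077 at 240 h. Without single arrays the effect differed between times in 3 to 11 members, the mean effect passed in 1 to 6 and PBS controls differed in 17 to 23. Among all tested probe sets these ranges were 312 to 475, 213 to 398 and 784 to 1160. The mean effect passed in 5 members with median scaling. PBS controls differed in 5 members within 1, 24 and 240 h and 0 within 6 and 72 h. The cause was not tested. With the replicate number as a block, 12 members passed at 24 h, 11 higher and 1 lower, out of 672 probe sets. Same-numbered kainate and PBS arrays of a time deviated from their group means with a correlation of −0.073 to 0.17, above 0.1 in 3 of 15 pairs. The labels do not say whether such arrays are paired, and these correlations cannot decide it. Signal near the floor limits Rpl5, Rpl30 and Rpl3l. Median scaling, the fits within array sets and the second probe set were chosen after seeing the data.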

Other observations

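Members were also compared by how their log2 signal deviated from the group mean on the same 30 arrays, a description of arrays that share their scaling and RNA. Over the 861 pairs of the 42 tested members the median correlation was 0.12. It was 0.35 over the 55 pairs of the 11 genes that rose at 24 h, 0.084 over the 465 pairs of the other 31, and 0.13 between them. The 11 genes passed by an adjusted p, which depends on the same deviations, so these medians are not free of that choice. The pairs most alike were Rpl19 and Rpl24 (r = 0.88) and Rps3a and Rps10 (r = 0.87). Rpl24 did not pass at 24 h. The member with the lowest median correlation to the others was Rpl3l (−0.28), followed by Rpl19l4 (−0.25) and Rpl7a (−0.16).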
